A study of Mus musculus with 8 samples.

Results

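The 10 genes described here are those of MHC class I antigen presentation: the class I heavy chains H2-K1, H2-D1, H2-T23 and H2-T24, the light chain B2m, the peptide transporter genes Tap1 and Tap2, the loading factor Tapbp, and the immunoproteasome subunits Psmb8 and Psmb9. They were selected by symbol from the 24421 genes of the deposited tables, with earlier results of these libraries known, and all 10 passed the filter on low values that left 12348 genes for testing. RNA-seq was done on calvarial osteoblastic cells, which are bone-forming precursors released by enzyme from the skulls of newborn C57BL/6 mice. WT cells and Def6-/- cells were each sampled before differentiation (day 0) and after 12 days in medium with ascorbic acid and β-glycerophosphate, which drives osteoblasts to mature and mineralize. Each of the 4 groups had 2 libraries, named replicate 1 and replicate 2, and pairs of values below are in that order. The cells came from WT and Def6-/- littermates of a line backcrossed to C57BL/6 in which Def6, a guanine nucleotide exchange factor of immune cells, is disrupted in every cell. All Def6-/- libraries therefore carry the same targeted chromosome 17, so that loss of Def6 and any difference in the DNA that flanks it cannot be told apart by a comparison of genotypes.

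MHC class I molecules show peptides from inside the cell to CD8 T cells. Proteasomes cut cytosolic proteins, the TAP1-TAP2 transporter moves the peptides into the endoplasmic reticulum, tapasin (Tapbp) bridges the transporter to empty class I molecules, and a heavy chain reaches the surface once it has bound beta-2 microglobulin (B2m) and a peptide. H2-K1 and H2-D1 encode the classical heavy chains that C57BL/6 cells display, H2-T23 encodes Qa-1, the ligand of the inhibitory NKG2A receptor of natural killer cells, and H2-T24 is a little-studied nonclassical gene. Interferons raise most of these genes, and Psmb8 (LMP7) and Psmb9 (LMP2) then take the places of the constitutive subunits Psmb5 and Psmb6 in newly made proteasomes.

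In GRCm38, the build that the study's mm10 alignments use, 9 of the 10 genes lie in the H-2 region of chromosome 17 and B2m lies on chromosome 2. Def6 itself is on chromosome 17, at chr17:28207778-28228608. Moving away from it come Tapbp (chr17:33915899-33929292), H2-K1 (chr17:33996017-34000347), then Psmb9, Tap1, Psmb8 and Tap2 side by side between 34181987 and 34216321, H2-D1 (chr17:35262730-35267499), H2-T24 (chr17:36005695-36020560) and H2-T23 (chr17:36029773-36032855). Measured between gene starts, Tapbp was 5.71 Mb and H2-T23 7.82 Mb from Def6, and the 9 genes spanned 2.12 Mb. B2m is at chr2:122147686-122153083. Psmb9 and Tap1 overlap by 212 exonic bases on opposite strands, and Tapbp shares 149 exonic bases with Zbtb22. The library kit named by the study does not mark strand, so reads in such stretches cannot be given to one gene.

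Upstream sequence is shown for the heavy chain and light chain genes that the results turn on, since these genes moved together over the 12 days, and since B2m is on another chromosome. RefSeq (GRCm38.p6) had an entry for 8 of the 10 genes, with none for Tap2 and H2-T24. Upstream here means before the RefSeq start, which for some genes lies inside the gene coordinates given above, which are from GENCODE. In each sequence, read 5′ to 3′ along the gene's own strand, capitals mark matches on either strand to the core of an interferon regulatory factor site, AANNGAAA, or to an NF-kappaB site. The H2-K1 window is chr17:34000348-34000597 on the minus strand and the B2m window is chr2:122147437-122147685 on the plus strand.
H2-K1: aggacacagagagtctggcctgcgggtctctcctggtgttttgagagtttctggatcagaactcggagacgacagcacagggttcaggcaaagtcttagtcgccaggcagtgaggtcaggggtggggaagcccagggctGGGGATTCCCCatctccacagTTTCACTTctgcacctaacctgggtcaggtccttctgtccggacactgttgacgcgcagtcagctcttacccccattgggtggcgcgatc
B2m: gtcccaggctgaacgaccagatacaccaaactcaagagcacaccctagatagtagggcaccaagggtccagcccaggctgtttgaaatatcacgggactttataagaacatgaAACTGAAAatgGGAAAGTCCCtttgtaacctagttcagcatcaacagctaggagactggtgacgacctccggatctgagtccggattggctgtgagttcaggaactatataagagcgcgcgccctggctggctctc
H2-D1 carried the same pair of matches as H2-K1, in a stretch that lies inside the gene as placed above. Over the 29 bases from the first to the last capital, H2-K1 (chr17:34000430-34000458) and H2-D1 (chr17:35262923-35262951) differed by 1 base, A18T, counted from the 5′ end of the stretch with the H2-K1 base first.
H2-K1 stretch: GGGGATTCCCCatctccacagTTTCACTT
H2-D1 stretch: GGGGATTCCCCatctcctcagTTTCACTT
H2-T23 held 2 matches to the interferon regulatory factor core and none to the NF-kappaB site, and they are shown in their surrounding bases (chr17:36032812-36032831 and chr17:36032769-36032788). Both stretches lie inside the gene as placed above.
H2-T23 stretch 1: tactgcTTTCTCTTtcataa
H2-T23 stretch 2: ttctcaTTTCTGTTggacgc
Of 32851 promoters in the reference, 21.3% held the AANNGAAA core within 250 bases before the start, 7.25% held an NF-kappaB match and 1.11% held both. The longer interferon-stimulated response element GAAANNGAAA, which contains that core, was present in 2.98% of promoters and in those of B2m and H2-T23. Psmb8 held the only match among these genes to a gamma-activated site, TTCNNNGAA, which 7.02% of promoters hold. Tapbp, Tap1, Psmb8 and Psmb9 had no match to AANNGAAA or the NF-kappaB site in this window. The windows of Tapbp (chr17:33919228-33919477), Psmb8 (chr17:34197945-34198194) and Psmb9 (chr17:34187331-34187580) lie inside the GENCODE coordinates of these genes. Bases before the GENCODE starts of Tapbp, Psmb8 and Psmb9 were therefore not searched. A match is a description of these letters and not evidence that a factor binds there.

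Reads on genes numbered 2414856 to 3482837 per library, which was 28.8% to 35.3% of all reads, and reads that aligned to more than 1 place were not counted. Such reads were 34.9% of the total in WT day 0 replicate 1 and between 21.4% and 26.6% in the other libraries, so that library stands apart, and the counts of calls, the differences at day 0 and the rises in WT cells are also given without it. Class I heavy chain genes are close copies of each other, and the share of their reads lost in this way is not known, so levels of H2-K1, H2-D1, H2-T23 and H2-T24 are uncertain as absolute values. Def6 had 147 and 112 reads in WT day 0 cells, 186 and 137 in WT day 12 cells, 0 and 1 in Def6-/- day 0 cells, and 2 and 2 in Def6-/- day 12 cells, so the labels match the targeted gene in all 8 libraries. Values below are CPM rescaled to reads on genes with TMM factors (normalized CPM). Differences are on the log2(normalized CPM + 1) scale, which understates changes of genes with few reads, with the standard error (SE) of the limma fit. The study calls the libraries of a group biological replicates without describing the animals behind each, so p-values measure the spread between these libraries.

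Over 12 days of differentiation the class I pathway rose in both genotypes. In WT cells 9 of the 10 genes were higher at day 12 at an adjusted p under 0.05, where 12.7% of all genes tested were called higher, and in Def6-/- cells it was also 9 of 10, where 12% were. The 10 genes had a median difference of 1.73 for WT and 2.24 for Def6-/- cells, and the medians over all genes tested were -0.0015 and 0.0090. Taken gene by gene, the rise in Def6-/- cells minus that in WT cells had a median of -0.0037, with 5 genes above 0 and 5 below. The gene that did not pass was H2-T24 in WT cells and Tap1 in Def6-/- cells. Without WT day 0 replicate 1, 8 of the 10 genes passed in WT cells, Tap1 being lost (0.69, adjusted p = 0.0666), with a median of 1.85, and the rises of those that passed were between 1.08 (Tap2) and 3.75 (Psmb8).

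**Figure D1:**
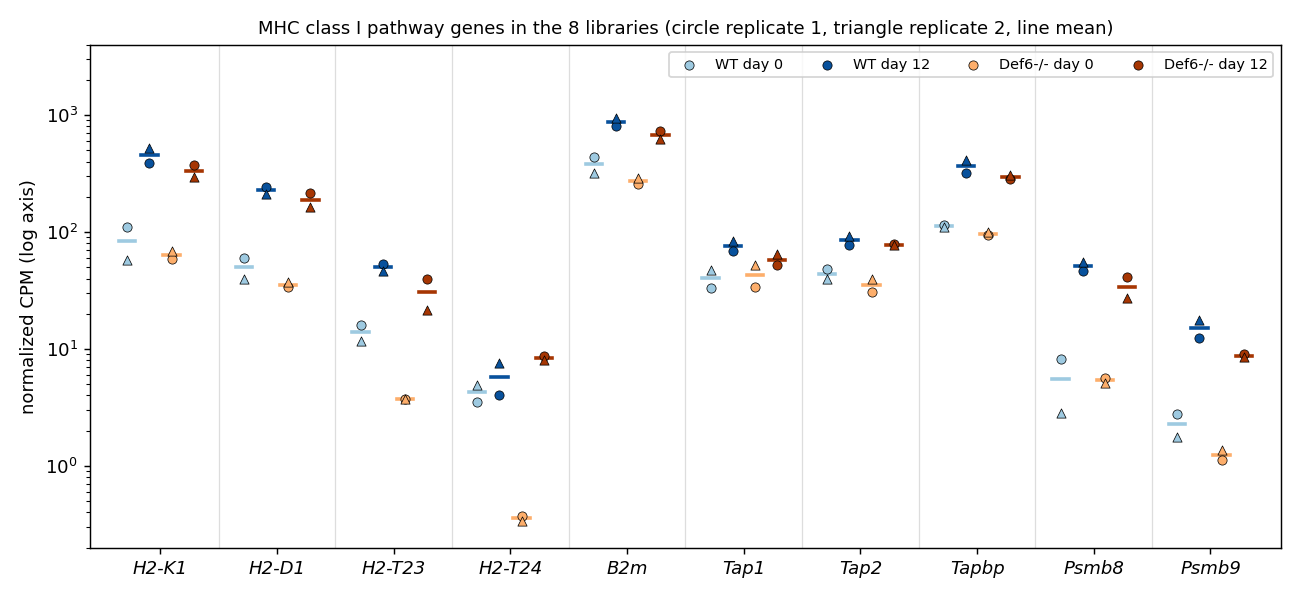
Normalized CPM of the 10 genes on a log axis in the 8 libraries, as points (circles for replicate 1, triangles for replicate 2), with a line at each group mean. Both day 12 groups sit above the day 0 group of the same genotype for H2-K1, H2-D1, H2-T23, B2m, Tap2, Tapbp, Psmb8 and Psmb9, and the lowest points of all are the Def6-/- day 0 libraries of H2-T24, at 0.376 and 0.341.

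Of the heavy chains, H2-K1 was at 110.5 and 58.0 normalized CPM in WT day 0 cells and at 386 and 524 in WT day 12 cells. In Def6-/- cells it went from 58.3 and 68.1 to 375 and 293. Every day 12 library was thus above every day 0 library, although the WT day 0 replicates stood far apart from each other. The log2 difference was 2.48 (SE 0.30, adjusted p = 0.00092) in WT cells and 2.38 (SE 0.30, adjusted p = 0.00112) in Def6-/- cells. H2-D1, the other classical heavy chain, was at 59.98 and 39.9 in WT day 0 cells, 244 and 210.2 in WT day 12 cells, 33.9 and 37.1 in Def6-/- day 0 cells, and 214 and 163 in Def6-/- day 12 cells. Its groups likewise did not overlap between days, with log2 differences of 2.19 (SE 0.24, adjusted p = 0.000513) and 2.36 (SE 0.24, adjusted p = 0.000365). H2-D1 kept pace with H2-K1 within each library: it had between 40.1 and 68.9 reads per 100 reads of H2-K1, and the 4 groups overlapped in this ratio.

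The nonclassical genes had fewer reads than the classical pair in every library. H2-T23 was at 16.2 and 11.7 normalized CPM in WT day 0 cells and at 53.4 and 46.5 in WT day 12 cells. In Def6-/- cells it was at 3.76 and 3.75 at day 0 and at 39.8 and 21.3 at day 12. It therefore started lower in Def6-/- cells, and rose in both genotypes, with log2 differences of 1.78 (SE 0.33, adjusted p = 0.00592) in WT and 2.67 (SE 0.33, adjusted p = 0.000908) in Def6-/- cells. Without WT day 12 replicate 1, the rise in WT cells was 1.65 and no longer passed (adjusted p = 0.0736). H2-T24 was at 3.55 and 4.95 in WT day 0 cells and at 4.02 and 7.54 in WT day 12 cells, so the days overlapped. In Def6-/- cells it went from 0.376 and 0.341, which is 1 read in each library, to 8.62 and 8.11. Its log2 difference was 0.33 (SE 0.37, adjusted p = 0.574) in WT cells, where leaving out WT day 12 replicate 2 turned it to -0.055, and 2.78 (SE 0.37, adjusted p = 0.0013) in Def6-/- cells.

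B2m, the light chain that class I heavy chains share, had the most reads of the 10 genes in every library. It was at 436 and 322 normalized CPM in WT day 0 cells, 811 and 948 in WT day 12 cells, 259 and 291 in Def6-/- day 0 cells, and 731 and 625 in Def6-/- day 12 cells. The day 12 libraries were all above the day 0 libraries. The log2 difference was 1.22 (SE 0.20, adjusted p = 0.00407) in WT and 1.30 (SE 0.20, adjusted p = 0.00306) in Def6-/- cells, and without WT day 12 replicate 2 the WT rise was 1.11 (adjusted p = 0.0528). B2m is also among the interferon stimulated genes that the study displayed from these libraries.

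The transporter genes had small differences between days, and their calls were the least stable of the pathway. Tap2 was at 48.5 and 39.6 normalized CPM in WT day 0 cells and 77.2 and 92.5 in WT day 12 cells, and went from 30.5 and 39.5 to 78.4 and 77.3 in Def6-/- cells. The log2 differences were 0.93 (SE 0.21, adjusted p = 0.0174) and 1.14 (SE 0.21, adjusted p = 0.0068). The WT call was lost without WT day 12 replicate 1 (adjusted p = 0.0788) or replicate 2 (adjusted p = 0.152) and when WT libraries were fitted alone (adjusted p = 0.0885), and the Def6-/- call was lost without Def6-/- day 0 replicate 1, day 12 replicate 1 or day 12 replicate 2 (adjusted p between 0.0602 and 0.0784). Tap1 was at 33.1 and 47.0 in WT day 0 cells, 68.6 and 84.6 in WT day 12 cells, 33.9 and 52.1 in Def6-/- day 0 cells, and 51.7 and 64.5 in Def6-/- day 12 cells. The days did not overlap in WT cells and overlapped in Def6-/- cells. Its log2 difference was 0.93 (SE 0.28, adjusted p = 0.0472) in WT cells, a call that 4 of 8 other settings and 7 of 8 fits with 1 library left out did not keep (adjusted p between 0.0515 and 0.268), every library but WT day 0 replicate 2 being needed for it. In Def6-/- cells the difference was 0.45 (SE 0.28, adjusted p = 0.322). The rises of Tap1 in the 2 genotypes differed by -0.48 (SE 0.39), which did not pass the test.

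Tapbp, which encodes tapasin, was at 116 and 111 normalized CPM in WT day 0 cells and at 318 and 414 in WT day 12 cells, and it went from 94.8 and 99.1 to 281 and 306 in Def6-/- cells. Replicates lay close together at day 0, and the days were far apart in both genotypes. The log2 difference was 1.67 (SE 0.18, adjusted p = 0.000497) in WT and 1.59 (SE 0.18, adjusted p = 0.000662) in Def6-/- cells.

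The immunoproteasome subunits started from few reads and rose in both genotypes. Psmb8 was at 8.29 and 2.83 normalized CPM (21 and 8 reads) in WT day 0 cells, 46.2 and 55.3 in WT day 12 cells, 5.65 and 5.11 in Def6-/- day 0 cells, and 41.1 and 27.3 in Def6-/- day 12 cells. The log2 difference was 3.11 (SE 0.41, adjusted p = 0.00127) in WT cells, the largest of the 10 genes, and 2.44 (SE 0.41, adjusted p = 0.00425) in Def6-/- cells, where it was 2.15 (adjusted p = 0.0517) without Def6-/- day 12 replicate 1. Psmb9 was at 2.76 and 1.77 (7 and 5 reads) in WT day 0 cells, 12.3 and 17.6 in WT day 12 cells, 1.13 and 1.36 (3 and 4 reads) in Def6-/- day 0 cells, and 9.03 and 8.54 in Def6-/- day 12 cells. Both genes had every day 12 library above every day 0 library. The log2 difference of Psmb9 was 2.29 (SE 0.33, adjusted p = 0.00202) in WT and 2.12 (SE 0.33, adjusted p = 0.00292) in Def6-/- cells.

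Set against the constitutive subunits that they replace, the immunoproteasome subunits were higher in every day 12 library than in any day 0 library. Per exonic length, there were 1.65 and 1.53 of Psmb8 per 100 of Psmb5 in WT day 0 cells and 25.8 and 36.9 in WT day 12 cells, and the ratio went from 2.69 and 3.17 to 28.0 and 17.4 in Def6-/- cells. Psmb9 per 100 of Psmb6 went from 0.56 and 0.92 to 4.79 and 7.78 in WT cells and from 0.49 and 0.70 to 4.02 and 3.69 in Def6-/- cells. Per exonic length, which counts all annotated exons of a gene, both subunits were still below their partners in all 4 day 12 libraries. Counted in reads instead, Psmb9 was far below Psmb6 as well, whereas Psmb8 and Psmb5 overlapped. Day 12 reads of Psmb8 were 161 and 132 in WT and 100 and 64 in Def6-/- cells. Those of Psmb5 were 166 and 95 in WT and 95 and 98 in Def6-/- cells. For the other exchangeable subunit, Psmb10 on chromosome 8, the ratio to its partner Psmb7 was already 24.03 to 32.5 per 100 at day 0 and was 61.8 to 134 at day 12. None of the 14 constitutive 20S subunits passed the test in either genotype, with median differences of -0.62 in WT and -0.26 in Def6-/- cells. Between genotypes, all 14 were lower by sign in Def6-/- cells at day 0 (median -0.50) and 13 at day 12 (median -0.09). None was called on either day, and at day 0 the libraries of every one overlapped or touched between genotypes. At day 12 the Def6-/- libraries lay below both WT libraries for 6 of the 14, where 15.9% of all genes tested did so. Ratios within a library do not depend on the scaling between libraries, and no test was made of them.

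**Figure D2:**
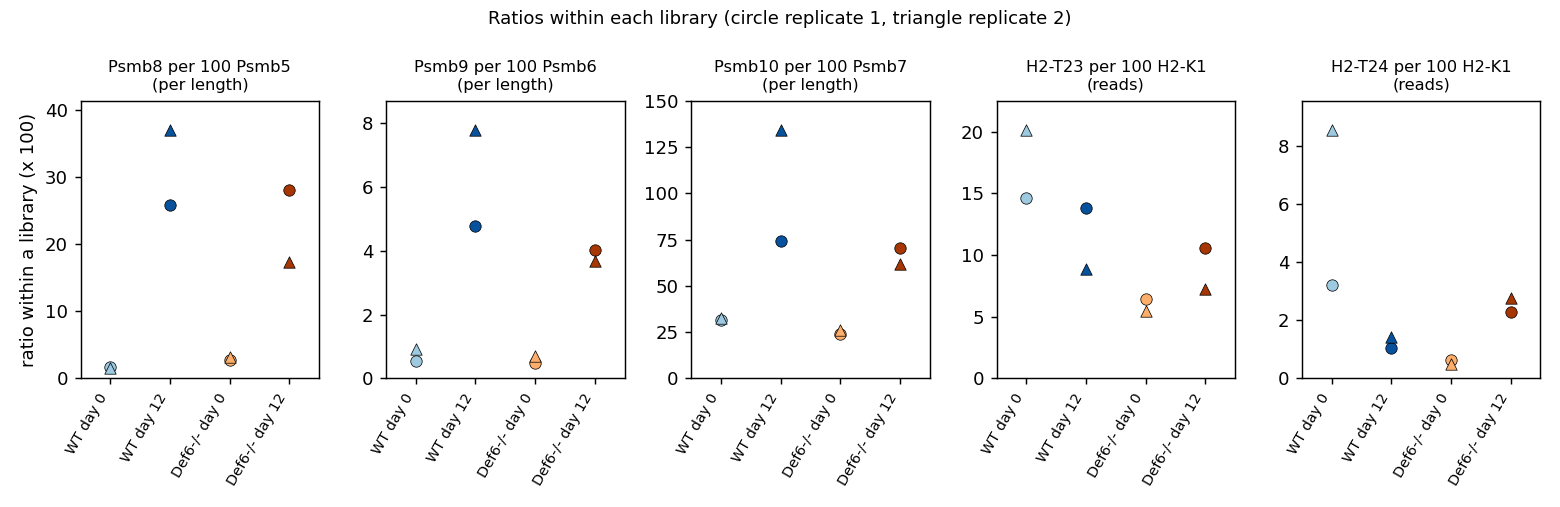
Ratios within each library, as points by group (circles for replicate 1, triangles for replicate 2), for 3 immunoproteasome subunits against the constitutive subunits they replace (per exonic length, per 100) and for H2-T23 and H2-T24 against H2-K1 (reads per 100 reads). Psmb8 rose from at most 3.17 to at least 17.4 per 100 Psmb5, and the Def6-/- day 0 libraries had the lowest H2-T23 share, 6.45 and 5.50 reads per 100 of H2-K1.

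Compared per kilobase of exon, B2m led in every group, at 441 ± 93.8 normalized CPM per kb (SD, n = 2) in WT day 0 cells, 1023 ± 112 in WT day 12 cells, 320 ± 26.3 in Def6-/- day 0 cells and 788 ± 87.0 in Def6-/- day 12 cells. At day 0, Tapbp came next, at 31.2 ± 0.906 in WT and 26.7 ± 0.840 in Def6-/- cells, followed by H2-K1, at 28.7 ± 12.6 and 21.5 ± 2.36, with the replicates of these genes overlapping in WT cells and not in Def6-/- cells. By day 12 H2-K1 had passed Tapbp, at 155 ± 33.1 against 101 ± 18.7 in WT and 114 ± 19.7 against 81.0 ± 4.93 in Def6-/- cells. H2-D1 and then Tap2 came next in all 4 groups. Below them, H2-T23, Psmb8 and Tap1 followed at day 12, at 17.3 ± 1.69, 15.0 ± 1.90 and 14.0 ± 2.07 in WT cells, and their order in Def6-/- cells was within the spread of the replicates. Psmb9 and H2-T24 were the lowest of the 10 genes at day 12.

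At day 12 the pathway was lower in Def6-/- than in WT cells by sign for 9 of the 10 genes, but by small amounts. These values are a description, since the genes were chosen on symbols with this comparison already known. The Def6-/- libraries lay below both WT libraries for 7 genes, where 15.9% of all genes tested did so, and 1 gene, H2-T23, met the study's rule of an unadjusted p under 0.05 and over 1.2-fold, where 0.591% of all genes were called lower. No adjusted p was under 0.05. The median difference was -0.38, against -0.00052 over all genes tested. H2-T23 was at -0.75 (SE 0.33), with library values as above and not overlapping, and the Def6-/- replicates differed from each other by more than the groups did on this scale. That call was lost without any 1 of the WT day 12, Def6-/- day 0 or Def6-/- day 12 replicates except Def6-/- day 12 replicate 1, and the difference was -0.32 without Def6-/- day 12 replicate 2.

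Of the others at day 12, Psmb9 was at -0.69 (SE 0.33), Psmb8 at -0.58 (SE 0.41), H2-K1 at -0.44 (SE 0.30), Tap1 at -0.39 (SE 0.28), B2m at -0.38 (SE 0.20) and Tapbp at -0.30 (SE 0.18), all without overlap between genotypes. H2-D1 (-0.28, SE 0.24) and Tap2 (-0.12, SE 0.21) overlapped. Single libraries moved many of these values by over 1.5 times. Without WT day 12 replicate 2, Tap2 turned to 0.013, Tapbp was at -0.11, H2-K1 at -0.22, Tap1 at -0.24 and Psmb9 at -0.45, and without WT day 12 replicate 1 Tapbp was at -0.50, H2-K1 at -0.66, Tap2 at -0.25 and H2-D1 at -0.17. Without Def6-/- day 12 replicate 2, H2-D1 was at -0.084, H2-K1 at -0.26 and Psmb8 at -0.29, and without replicate 1 of that group H2-D1 was at -0.48 and Tap1 at -0.24. H2-T24 alone was higher, by 0.52 (SE 0.37), with both Def6-/- libraries above both WT libraries, and was at 0.13 without WT day 12 replicate 1 and 0.90 without replicate 2. When only the 4 libraries of day 12 were fitted, with the spread taken from them alone, 7 of the 10 genes met the rule and 560 genes did so in all, against 173 in the fit of all 8 libraries. Without WT day 0 replicate 1 or replicate 2, neither of which is part of the comparison, 5 of the 10 genes met it, and 458 and 455 genes did so in all.

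**Figure D3:**
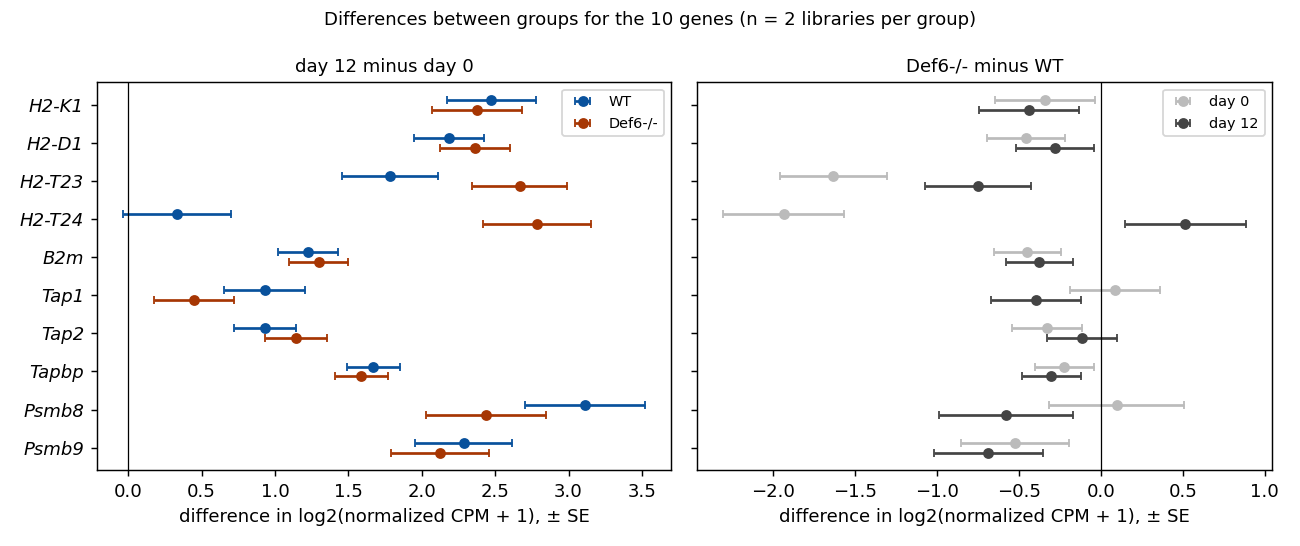
Differences in log2(normalized CPM + 1) with their standard errors for the 10 genes, from day 0 to day 12 in each genotype (left) and between Def6-/- and WT cells at each day (right), from 2 libraries per group. The differences between days reach 3.11, most differences between genotypes lie between 0 and -0.69, and H2-T23 and H2-T24 at day 0 stand apart at -1.63 and -1.94.

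At day 0, before differentiation, the differences between genotypes were largest for H2-T23 and H2-T24, the 2 genes called of the 10. H2-T23 had 41 and 33 reads in WT and 10 and 11 in Def6-/- cells, and H2-T24 had 9 and 14 reads in WT and 1 and 1 in Def6-/- cells. For both genes the Def6-/- libraries were far below either WT library and nearly equal to each other. The log2 differences were -1.63 (SE 0.33) for H2-T23 and -1.94 (SE 0.37) for H2-T24. Both met the study's unadjusted rule, by which 1.31% of all genes tested were called lower, and neither passed after adjustment over all genes (adjusted p = 0.908 for both). In pooled reads, Def6-/- cells had 0.279 of the WT level of H2-T23 (95% exact binomial interval 0.163 to 0.458) and 0.0855 of the WT level of H2-T24 (0.00977 to 0.346), intervals that cover counting error only. Without WT day 0 replicate 1, the differences were -1.41 and -2.13 and both genes still met the unadjusted rule. Fitted values of H2-T24 depend on the pseudocount, with a log2 difference of -3.23 at a pseudocount of 0.1 and -1.06 on CPM as deposited.

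The other 8 genes were within 0.52 of 0 at day 0 on the log2 scale. H2-D1 was at -0.45 (SE 0.24), B2m at -0.45 (SE 0.20), Psmb9 at -0.52 (SE 0.33), Tap2 at -0.33 (SE 0.21) and Tapbp at -0.22 (SE 0.18), with Def6-/- libraries below both WT libraries in each. Together with H2-T23 and H2-T24 these were 7 of 10 genes, where 11.7% of all genes tested lay below. H2-K1 (-0.34), Tap1 (0.09) and Psmb8 (0.10) overlapped between genotypes. These values rested on single WT libraries. Without WT day 0 replicate 1, the library that stands apart, H2-K1 turned to 0.12 and Tap1 to -0.15, H2-D1 was at -0.16, B2m at -0.23, Psmb9 at -0.30, Tap2 at -0.18 and Tapbp at -0.19, and Psmb8, at 0.74, met the rule as higher. The median of the 10 genes was then -0.19, against -0.39, and 549 genes in all were called. Without WT day 0 replicate 2, H2-K1 was at -0.80, H2-D1 at -0.74, B2m at -0.67, Psmb9 at -0.74, Tap2 at -0.47, Psmb8 at -0.54 and Tap1 at 0.33. In that fit 6 of the 10 genes were called lower, 5 of them also after adjustment (H2-T23, H2-T24, B2m, H2-D1 and H2-K1, adjusted p between 0.00324 and 0.0193), and 4585 genes in all were called in either direction, against 284. Leaving out 1 Def6-/- day 0 library moved Tap1 to between -0.22 and 0.39, and Tap2 to -0.15 without replicate 1 and -0.51 without replicate 2, while H2-K1 was at -0.23 without replicate 1.

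The extent of the change over the 12 days was unlike in the 2 genotypes for 1 of the 10 genes at an unadjusted p under 0.05, where 1.13% of all genes tested were called. That gene was H2-T24, whose rise in Def6-/- cells exceeded that in WT cells by 2.45 (SE 0.52, adjusted p = 0.9998). For H2-T23 the excess was 0.88 (SE 0.46), which did not pass. The other 8 genes had differences between -0.67 and 0.21. Relative to H2-K1 in the same library, H2-T23 had 14.6 and 20.1 reads per 100 in WT day 0 cells and 6.45 and 5.50 in Def6-/- day 0 cells, and at day 12 the genotypes overlapped, at 13.8 and 8.87 in WT and 10.6 and 7.28 in Def6-/- cells. The ratio of H2-T24 to H2-K1 was 3.21 and 8.54 per 100 in WT day 0 cells, 0.65 and 0.50 in Def6-/- day 0 cells, 1.04 and 1.44 in WT day 12 cells, and 2.30 and 2.77 in Def6-/- day 12 cells, so that the order of the genotypes was opposite on the 2 days.

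H2-T24 and H2-T23 are neighbours at the end of the span farthest from Def6. The tested genes on either side of the pair did not separate the genotypes at day 0. On the near side, Prr3 was at 0.03 and Gnl1, a GTP-binding protein gene 16.2 kb away, was at -0.45, and on the far side, 223 and 226 kb away, Rpp21 was at -0.27 and Trim39 at -0.07, with overlapping libraries in all 4 genes. H2-T22, a class I gene beside the pair, had at most 3 reads in any library and was not tested. A930015D03Rik, annotated on the opposite strand, spans H2-T23 and H2-T24 without an exonic base in common with either. It had 3 and 0 reads in WT day 0 cells and 6 and 5 in Def6-/- day 0 cells, and 1 to 4 reads in the day 12 libraries.

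Genes around the 9 chromosome 17 members were examined for the same differences. Of 120 other genes within the 2.12 Mb span that are in none of the gene lists, 68 were tested. At day 12 none of them was called higher and 1 was called lower in Def6-/- cells, with a median difference of -0.03, where the 9 members of the span had a median of -0.39. At day 0, 2 of the 68 were called lower and none higher, with a median of -0.12. Between Def6 and the span, 67 tested genes had medians of 0.02 at day 12 and -0.07 at day 0. Of these, 3 were called higher and 1 lower at day 12, and 2 higher and none lower at day 0. Within 20 Mb of Def6, 4 of 380 tested genes were called higher and 9 lower at day 12, and 6 higher and 15 lower at day 0. Over all 12348 genes tested, 100 were called higher and 73 lower at day 12, and 122 and 162 at day 0. These are smaller shares than within 20 Mb of Def6, and the cause of that was not tested. In the span, the lowest differences at day 12 among unlisted genes were those of Lst1 (-1.09), C2 (-0.90) and Aif1 (-0.68), which, like most members, rose over the 12 days in WT cells, and the highest were Cdsn (0.90), Mrps18b (0.70) and Col11a2 (0.66). Some of these rest on few reads. At day 12 Lst1 had 23 and 15 reads in WT and 7 and 5 in Def6-/- cells. Aif1 had 27 and 5 against 7 and 4, and Cdsn 8 and 3 against 61 and 0, both overlapping between genotypes.

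**Figure D4:**
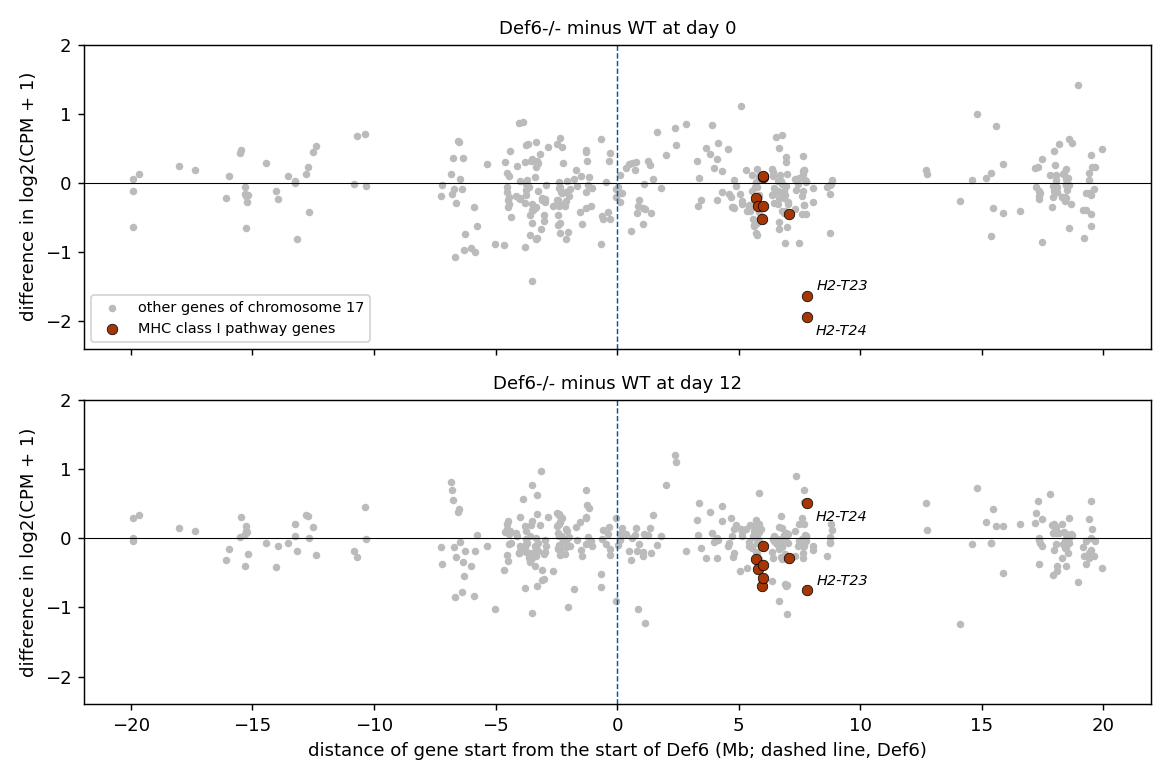
Differences between Def6-/- and WT cells in log2(normalized CPM + 1) at day 0 (top) and day 12 (bottom) by distance of the gene start from Def6 (dashed line, not plotted itself) in Mb, with the 9 class I pathway genes of chromosome 17 in dark orange and the 380 tested genes within 20 Mb that are in none of the gene lists in grey. At day 0 H2-T23 and H2-T24 lie below all the grey points, and at day 12 H2-T24 lies above 0 and the other 8 below.

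B2m lies outside chromosome 17. Its difference between genotypes was -0.45 at day 0 (-0.23 without WT day 0 replicate 1 and -0.67 without replicate 2) and -0.38 at day 12 (between -0.49 and -0.26 with a library left out), and the medians of the 7 chromosome 17 members other than H2-T23 and H2-T24 were -0.33 and -0.39. Across the 8 libraries, the log2 level of B2m had a Pearson r of 0.990 with the mean of the other members. The same value was 0.994 for Psmb9, 0.983 for H2-K1, 0.931 for H2-T23, 0.769 for H2-T24 and 0.763 for Tap1. These are descriptions over 8 libraries that share the day effect. The genes outside the set whose levels were most like the mean of the 10 genes, of 12338 compared, were Ddx60, an interferon-stimulated helicase gene (r = 0.997), Marcksl1, Tpst1, Cxcl16 and Abhd12.

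Other genes of antigen presentation outside chromosome 17 were also examined, with no test between them and the 10 genes. Of 14 such genes, all tested, 3 rose and 1 fell in WT cells, and none rose and 1 fell in Def6-/- cells. Between genotypes their median difference was -0.165 at day 12, with 8 lower and 6 higher by sign in Def6-/- cells. Without overlap of libraries, 6 were lower and 2 higher on that day. At day 0 the median was -0.169, with 12 lower and 2 higher by sign. The medians of the 10 genes were -0.38 at day 12 and -0.39 at day 0. Nlrc5, the transactivator of class I genes, had 5 and 14 reads in WT day 0 cells, 40 and 31 in WT day 12 cells, 4 and 6 in Def6-/- day 0 cells, and 12 and 16 in Def6-/- day 12 cells. Its day 12 difference was 1.65 in WT (adjusted p = 0.021) and 1.30 in Def6-/- cells (adjusted p = 0.0552), and at day 12 it was the 1 gene of the 14 called lower in Def6-/- cells (-0.96). Irf1, a transcription factor of the interferon response, rose by 0.86 in WT cells (adjusted p = 0.0403) and was at 0.33 in Def6-/- cells (adjusted p = 0.415). Erap1, the aminopeptidase that trims peptides to length, rose by 0.99 in WT cells (adjusted p = 0.0218) and was at 0.73 in Def6-/- cells (adjusted p = 0.0707). The proteasome activator genes Psme1 and Psme2 and the subunit gene Psmb10 did not pass, with differences of 0.67, 0.23 and 0.70 in WT cells. Among the chaperones of the endoplasmic reticulum, Canx fell by 0.89 in WT and by 0.81 in Def6-/- cells (adjusted p = 0.005 and 0.00815), and Calr, Pdia3 and Tapbpl did not pass.

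Among 22 other class I and class I-like genes, 6 passed the filter on low values, so the counts that follow leave out most of this family. Of the 6, 5 rose in WT and 3 in Def6-/- cells. H2-Q4 (chr17:35379617-35385290), a nonclassical gene inside the span, had 11 and 14 reads in WT day 0 cells, 107 and 152 in WT day 12 cells, 13 and 14 in Def6-/- day 0 cells, and 67 and 34 in Def6-/- day 12 cells. It rose by 3.01 in WT cells (adjusted p = 0.00139) and by 1.85 in Def6-/- cells (adjusted p = 0.0143), and its difference between genotypes was -1.11 at day 12 and 0.05 at day 0. H2-M3, which presents formylated peptides, rose by 1.64 in WT cells (adjusted p = 0.0462) and was at 0.89 in Def6-/- cells (adjusted p = 0.261). H2-Q7 was listed at 0 in all libraries. Most MHC class II genes had few reads: 4 of 11 were tested, 1 of them rose in each genotype, and their master regulator Ciita had at most 5 reads in any library. H2-DMb1 and Cd74 had the most, up to 87 and 39 reads in a library.

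Interferon stimulated genes are given for comparison, as a list of 36 drawn up with earlier results known, of which 1, Eif2ak2, is on chromosome 17 outside the span. Of 34 tested, 33 rose in WT and 19 in Def6-/- cells, and the median differences were 2.30 and 1.60. At day 12 all 34 were lower by sign in Def6-/- cells, 15 were called lower and the median was -0.87, beside a median of -0.38 and 1 call for the 10 class I pathway genes. At day 0 the medians were -0.24 and -0.39. Irf7 and Irf9, transcription factors of the interferon response, had differences of -1.43 and -0.65 at day 12. No difference between the lists was tested.

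Markers of other cell types moved with the day and are given because leukocytes express the class I pathway strongly. The study describes macrophage and osteoclast markers, which its text does not name, as very low in these cultures on its scale of all reads. In other cultures it removed hematopoietic cells, and by qPCR still found lower interferon stimulated genes in Def6-/- cells. Class I genes were not reported for those cultures. Of 20 macrophage markers, 16 rose in WT cells and 16 in Def6-/- cells, and the summed level of 19 of them went from 487 and 278 normalized CPM in WT day 0 cells to 6818 and 3473 in WT day 12 cells, and from 225 and 341 to 4258 and 3767 in Def6-/- cells. Ptprc was left out of the sum because its values were not whole reads in 3 libraries, and it stayed in the counts over 20 markers. The genotypes overlapped in this sum on both days, and none of the 20 was called between genotypes. By sign, 19 of the 20 were lower in Def6-/- cells at day 12 (median -0.32) and 18 at day 0 (median -0.27). The part of this shift in the class I differences was not tested. Within WT day 12 cells the library with the larger macrophage sum, replicate 1, had the lower H2-K1, H2-T24, B2m, Tap1, Tap2, Tapbp, Psmb8 and Psmb9, and the higher H2-D1 and H2-T23. Within Def6-/- day 12 cells the library with the larger sum, also replicate 1, had the higher level of 8 of the 10 genes, and the lower Tap1 and Tapbp. All 10 lymphocyte markers were at 0 in every library, and summed dendritic and endothelial cell markers were at most 15.1 and 13.1. In bulk RNA, fewer cells of a type and less RNA per cell cannot be told apart, and the part of macrophages in the rise of the class I genes was not tested. Osteoblast markers, led by the type I collagen genes, moved with both comparisons. Their sum was 28973 and 43544 normalized CPM in WT day 0 cells, 81623 and 97621 in WT day 12 cells, 40259 and 43361 in Def6-/- day 0 cells, and 115894 and 100147 in Def6-/- day 12 cells. Of the 10 markers, 6 rose in each genotype. At day 12 all 10 were higher by sign in Def6-/- cells, with 7 not overlapping and 1 called, beside the lower class I genes, and the part of this shift in the class I differences was not tested.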

How the data were processed

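Poly-A RNA of 8 libraries was sequenced and, per the study's methods and processing notes, trimmed with fastp, aligned to mm10 with HISAT2, counted with HTSeq and given as CPM with edgeR by the authors. Versions, annotation and strand setting are not given in the sources used here. The authors scaled their CPM to every read of a library, whether on a gene or not. Of 114821 positive values, 99.957% were whole multiples of 1 read within 0.01 read, so reads were recovered, and values were rescaled to reads on genes with TMM factors (edgeR 4.0.16). The 49 exceptions fell in 9 genes: Acp5, Adgre1, Cd14, Csf1r, Ctsk, Fcgr3, Itgam, Itgb3 and Ptprc. None of these is a member, Ptprc is in the macrophage list, and the cause was not tested.

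The 12348 genes whose deposited CPM averaged 1 or more in any group were fitted with limma 3.58.1 (trend) on log2(normalized CPM + 1), with 4 group means over all 8 libraries and Benjamini-Hochberg adjustment over all genes tested. The fit was also run on simulated reads, with known changes set only in the Def6-/- day 12 group and only for genes above a low level. That run does not bear on changes of genes with few reads or on changes between days in WT cells. Between days a call was an adjusted p under 0.05, between genotypes an unadjusted p under 0.05 with over 1.2-fold, as in the study, and for the difference between the changes an unadjusted p under 0.05. The members and lists were chosen with earlier results of these data known. All 10 members are described. Other genes named are those of the lists, the 4 tested genes flanking the H2-T pair, and the 5 genes most like the members' mean by Pearson r. Also named are the 3 lowest and 3 highest unlisted genes of the span, and those of the stretch between Def6 and the span. Same-numbered libraries did not pair across groups by label, and their deviations correlated by 0.00232 to 0.327. edgeR and DESeq2 1.42.0 on recovered reads, CPM as deposited, other pseudocounts, no filter, the compared libraries alone, a replicate block and each library left out were tried as alternatives. Lengths and positions are from GENCODE M21 (98.4% of genes matched) and promoters from RefSeq.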

Additional observations from a re-analysis of the deposited data

Results flagged for a closer look

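The change of H2-T24 from day 0 to day 12 was larger in Def6-/- than in WT cells by 2.45 on the log2(normalized CPM + 1) scale (SE 0.52), and the test of that difference, made with limma, drew attention to it. It met an unadjusted threshold of 0.05 and did not pass after adjustment over all genes (adjusted p = 0.9998), except without WT day 0 replicate 2 (adjusted p = 0.0354), where 3333 genes in all met the unadjusted threshold. The Def6-/- day 0 libraries held 1 read each, against 9 and 14 in WT day 0 cells, 14 and 18 in WT day 12 cells, and 21 and 19 in Def6-/- day 12 cells. The difference was between 2.07 and 2.85 with each library left out in turn and between 1.52 and 4.12 under the other settings.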

How the results depend on the processing

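The day 12 rise of H2-K1, H2-D1, Tapbp and Psmb9 in both genotypes, and of B2m, H2-T23 and H2-T24 in Def6-/- cells and Psmb8 in WT cells, passed in all 16 other fits (8 settings and 8 with a library left out). The change of H2-T24 in WT cells lay between -0.055 and 0.68 with a library left out, and turned negative without WT day 12 replicate 2. The median rise of the 10 genes in Def6-/- cells was 1.61 on CPM as deposited, against 2.24. Between genotypes at day 12, the genes called among the 10 (1) were 0 on CPM as deposited, with a pseudocount of 0.1, with no filter and with DESeq2, 7 with the compared libraries alone, and 0 to 5 with a library left out. At day 0 the 2 called were 2 to 6, and for the difference between the changes the 1 called was 1 to 3, the higher counts coming without WT day 0 replicate 2. With the compared libraries alone, all genes called numbered 1085 against 2261 for days in WT cells, 3917 against 2075 for days in Def6-/- cells, 560 against 173 between genotypes at day 12 and 60 against 284 at day 0. With no filter, 459 were called at day 12 and 326 against 139 for the difference between the changes, and with DESeq2 85 and 45. With a library left out, the counts were 834 to 5705 and 927 to 4315 for days in WT and Def6-/- cells, 121 to 458 at day 12, 156 to 4585 at day 0, and 99 to 3333 for the difference between the changes. Calls higher in Def6-/- cells were 43.0% at day 0, 72.3% on CPM as deposited and 16.5% with DESeq2, and 57.8%, 70.0% and 71.8% at day 12, while the signs of the 10 genes were 8 lower at day 0 (9 with DESeq2) and 9 lower at day 12. CPM as deposited moved the median of all genes at day 0 from -0.02 to 0.10. The replicate block, a fit in which numbers that no label ties to a shared origin act as pairs, gave 9, 9, 1 and 2 of the 10 genes called for days in WT and Def6-/- cells and genotypes at day 12 and day 0, as without it, and 2552, 2284, 202 and 361 genes in all. The causes of these shifts were not tested. With 1 to 14 reads of H2-T24 per day 0 library, its fold is known only within its counting interval, and 2 libraries per group limit all tests.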
